A study of Mus musculus with 71 samples.

Results

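The data described here are chromatin accessibility profiles of wild-type p2 progenitors, collected on days 5, 7, 9 and 11 of a mouse embryonic stem cell differentiation towards ventral spinal cord. The population was taken by its labels: genotype WT, domain p2, with the NFIA-negative fraction on days 5, 7 and 9 and the NFIA-positive fraction on day 11. These are 11 of the 71 libraries of the study, with 2 libraries on day 5 and 3 on each of days 7, 9 and 11. The study also sorted p0-p1 and pMN progenitors from the same differentiation, an NFIA-positive p2 fraction on day 9 (3 libraries), and cells of a genotype labelled MUT, whose altered gene the labels do not name. The MUT cells were NFIA-negative on every day used here, day 11 included, whereas the WT cells of day 11 were NFIA-positive in all 3 domains.

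All groups shared the same culture. Mouse ES cells were grown in N2B27 medium with 10 ng/ml bFGF, received 5 µM of the GSK3β inhibitor CHIR99021 on day 2, then 100 nM retinoic acid (RA) with 10 nM Smoothened agonist (SAG) from day 3, and SAG alone from day 5. The domains were separated by CaTS-ATAC, in which live cells are fixed, transposed with the enzyme Tn5, stained for nuclear transcription factors and sorted. ATAC-seq counts the Tn5 insertions in each stretch of open chromatin. The labels do not say whether the replicates were separate cultures, so the p-values reflect only how far these libraries spread, and that spread may be technical. Each library pools many cells: more cells with an open interval and a more open interval in each cell cannot be told apart.

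As background, p2 progenitors occupy a band of the ventral neural tube just above the pMN domain. They express NKX6.1 but not OLIG2, the factor that defines pMN, and they give rise to V2 interneurons, whereas pMN gives rise to motor neurons and then oligodendrocyte precursors. The p0-p1 progenitors lie further dorsal and lack NKX6.1. NFIA is a transcription factor that neural progenitors gain as they pass from making neurons to making glia, and it is widely used as a marker of that passage.

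The deposited table numbers its intervals and carries no gene names or positions, so intervals are named here by number, and the p2 label could not be set against marker genes. Of 155738 intervals, 155734 passed the filter on low values (at least 10 normalised reads in at least 2 of the 71 libraries), and all of these were tested. An interval was called when its adjusted p was below 0.05 (limma, Benjamini-Hochberg over all intervals tested) and its mean changed by at least 1 on the log2(normalised reads + 5) scale. That scale understates the change of intervals with few reads. The WT p2 libraries held 21959154 to 31315134 reads in intervals. At the median interval, with 31.3 normalised reads on average over the 11 libraries, counting error alone is about 17.9% per library. Pearson's r between replicates, across intervals, ranged from 0.968 to 0.984 within the 4 groups. Replicate 2 of day 7 stood apart from the others of its day: 182 of its intervals were at 0 against 1249 and 1281, and the 1% of intervals with the most signal took 16.5% of it against 18.1% and 18.2%. The main results that this library moved are given with and without it. Outside these 11 libraries, those labelled replicate 3 of day 7 in WT pMN and in MUT pMN went against their genotype labels in a run of intervals that every WT p2 library covers. Replicate 2 of the NFIA-positive p2 cells of day 9 lay at 0.456 on the line from day 5 to day 11 described below. That was below every NFIA-negative p2 library of day 9 (0.476 to 0.549), whereas replicate 3 of its fraction lay within their range, at 0.537.

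The first question was how far the population had moved at each collection. Each library was projected on the line from the mean day 5 profile to the mean day 11 profile of WT p2, scaled so that these ends are 0 and 1, with a library left out of the ends when it was itself placed. The day 5 libraries fell at 0.012 and 0.067. The day 7 libraries lay close together at 0.213, 0.234 and 0.209. On day 9 the NFIA-negative libraries lay at 0.549, 0.476 and 0.477, about midway, although none had yet been sorted as NFIA-positive. The day 11 libraries, sorted as NFIA-positive, reached 1.05, 0.991 and 0.907. No library of one day overlapped the range of another in these 4 groups. The ends of the line were set by days 5 and 11, so only the placing of days 7 and 9 between them is a measurement.

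**Figure D1:**
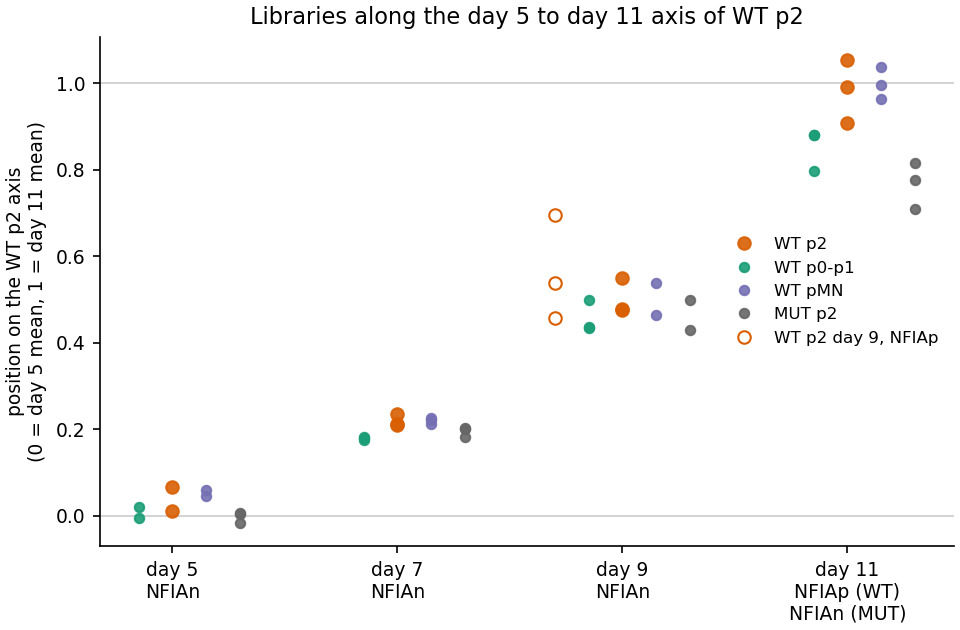
Position of each library on the line from the mean day 5 profile (0) to the mean day 11 profile (1) of WT p2, by day of collection. Filled orange points are the 11 WT p2 libraries, open orange points the NFIA-positive p2 fraction of day 9, and the other colours the same days in WT p0-p1, WT pMN and MUT p2; on day 9 the NFIA-negative p2 libraries sit between 0.476 and 0.549.

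The other courses were placed on the same line, which was built from WT p2 alone; their distance from it was not measured. WT pMN lay at 0.219 ± 0.007 (SD, n = 3) on day 7 and 0.998 ± 0.037 (SD, n = 3) on day 11, and WT p0-p1 at 0.853 ± 0.048 (SD, n = 3) on day 11. MUT p2 lay at 0.195 ± 0.012 (SD, n = 3) on day 7, 0.463 ± 0.049 (SD, n = 2) on day 9 and 0.766 ± 0.053 (SD, n = 3) on day 11. The MUT p2 libraries of day 11 therefore sat beyond every day 9 NFIA-negative p2 library and below every WT p2 library of day 11.

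The size of each step was then measured as the root mean square change over all intervals, with the variance between replicates removed. It was 0.668 (log2) from day 5 to day 7, 0.563 from day 7 to day 9, and 0.996 from day 9 to day 11. Without replicate 2 of day 7 the first steps were 0.709 and 0.591. The last step, which changes both the day and the NFIA fraction, was thus the longest in WT p2. It was also the longest in the other WT courses. The steps measured 0.684, 0.605 and 0.986 in WT pMN and 0.666, 0.574 and 0.814 in WT p0-p1. In MUT p2, which stayed NFIA-negative, the same steps measured 0.692, 0.560 and 0.676.

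Between day 5 and day 7, 14925 intervals opened (9.58% of those tested) and 8530 closed (5.48%). Between day 7 and day 9, 6354 opened (4.08%) and 9503 closed (6.10%). Without replicate 2 of day 7, the first step had 16710 opened and 9625 closed, and the second 6849 and 11322. The excess of closings in the second step was not kept among intervals with a mean of at least 30 normalised reads over the 11 libraries. Of these, 4930 opened and 4854 closed. Between the NFIA-negative cells of day 9 and the NFIA-positive cells of day 11, 26180 opened (16.8%) and 12469 closed (8.01%). From day 5 to day 11, 40053 opened (25.7%) and 29500 closed (18.9%). In all, 84517 intervals (54.3%) were called in at least 1 of these 4 comparisons, and 25160 (16.2%) were uncalled with day means within 0.5 (log2) of each other. The uncalled, steady intervals had a median level of 120.9 normalised reads, against 29.1 for those called.

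The threshold on size set these counts. Of the intervals that changed by at least 1, between 99.6% and 100% also passed the adjusted p in every direction of the 4 comparisons. With a pseudocount of 20 in place of 5, the first step fell to 6517 opened and 3456 closed, the second to 2720 and 3589, and the last to 16765 and 4673. With edgeR's quasi-likelihood test on the reads recovered from the table, the second step had 8973 opened and 14282 closed, and the last 30685 and 19528. The share of openings among the calls of the last step was 67.7%, and 55.5% after quantile normalization, which moved the median change of all intervals from -0.02 to -0.14. For day 5 against day 11 that share was 57.6%, and 49.0% after quantile normalization (median of all intervals 0.04 and -0.10), so that the excess of openings over the whole course was not kept under that scaling.

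**Figure D2:**
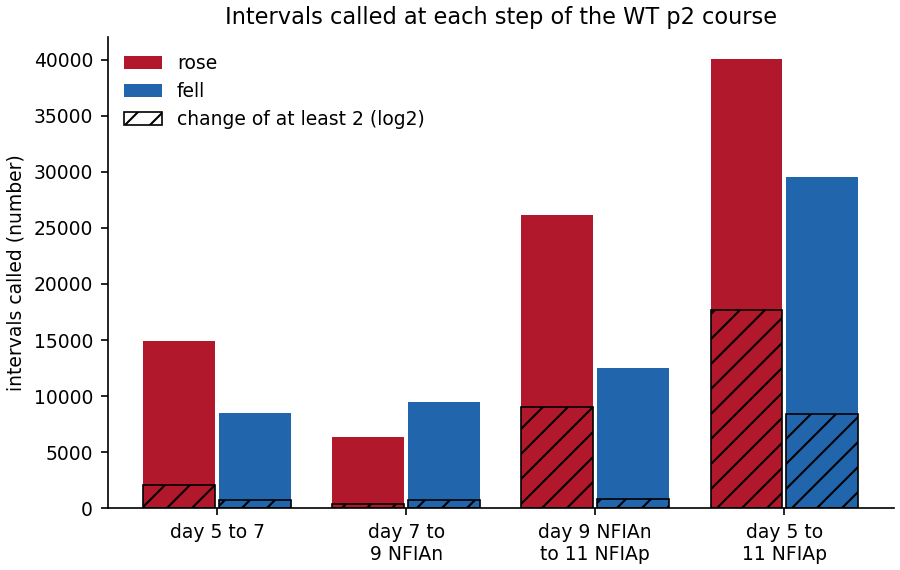
Number of intervals that rose or fell (limma, adjusted p below 0.05, log2 change of 1 or more) at each step of the WT p2 course and from day 5 to day 11. Hatching marks changes of at least 2: 9013 of the 26180 openings of the last step, against 829 of its 12469 closings.

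Openings of the last step were larger than those before it. Their median change was 1.68 (log2), against 1.39 in the first step and 1.26 in the second. Changes of at least 2 made up 34.4% of the openings of the last step, 13.8% of those of the first and 6.28% of those of the second. Closings had about the same median in each step, at -1.28, -1.28 and -1.29, and only 6.65% of those of the last step reached 2. Many changes started or ended near the floor of the assay: 37.7% of the intervals that opened in the last step had a mean under 10 normalised reads on day 9, and 37.8% of those that closed ended under 10 on day 11.

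The early openings are shown first. Interval_131259 had 17.4 and 5.43 normalised reads on day 5 and 534, 389 and 276 on day 7, a rise of 4.68 ± 0.35 (log2, SE; adjusted p = 1.7e-17, limma). It was still high on day 9, at 217, 260.3 and 316, and was back to 20.8, 32.4 and 14.0 on day 11. Interval_140735 followed the same course, from 4.65 and 4.34 on day 5 to 236, 159 and 154 on day 7, and then to 6.94, 6.26 and 9.89 on day 11. Both were open only on the middle days, with no overlap between the libraries of days 7 and 9 and those of days 5 and 11. Interval_5781 fell back only in part. It rose from 11.6 and 7.60 to 371, 244 and 228 by day 7, a change of 4.27 ± 0.29 (adjusted p = 3.3e-19, limma). It had 232, 321 and 305 on day 9 and came down to 127, 159.7 and 113 on day 11, still above day 5.

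The largest early closings reached the floor by day 7 and stayed there. Interval_123886 fell from 367 and 424 normalised reads on day 5 to 4.33, 14.5 and 8.84 on day 7, a change of -4.88 ± 0.34 (log2, SE; adjusted p = 2.05e-18, limma), and had 4.34, 4.18 and 4.94 on day 11. Interval_27704 fell from 253 and 252 to 4.33, 7.23 and 6.63 and had at most 7.23 in every later library of the 4 groups. Interval_111058 fell from 149.9 and 195 to 1.08, 10.8 and 0. All 3 were open in both day 5 libraries and low in every library that followed.

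The largest openings of the second step went on to rise by day 11. Interval_103717 had 11.9, 12.3 and 4.42 normalised reads on day 7, 225, 154 and 155 in the NFIA-negative cells of day 9, and 433, 449 and 448 on day 11, and its change from day 7 to day 9 was 3.68 ± 0.25 (log2, SE; adjusted p = 2.91e-18, limma). Interval_52003 rose from 15.2, 9.40 and 7.74 to 379, 194 and 167 and then to 1475, 1358 and 916. Interval_64980 rose from 10.8, 21.7 and 12.2 to 299, 215 and 174. In all 3 the opening had begun before the cells were sorted as NFIA-positive, and replicate 1 was the highest of the day 9 libraries.

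Closings of the second step were as deep. Interval_57839 held 490.4 and 358 normalised reads on day 5 and 346, 288 and 387 on day 7, and dropped to 6.52, 11.0 and 10.1 on day 9, a change of -4.61 ± 0.28 (log2, SE; adjusted p = 4.23e-20, limma). Interval_9045 peaked on day 7 at 384, 174 and 278, from 103 and 34.7 on day 5, and fell to 5.59, 6.59 and 7.57. Interval_27609 also peaked on day 7, at 1052, 891 and 1108, and fell to 23.3, 51.6 and 54.7. The first of these was thus a lasting element of days 5 and 7, and the other two were highest on day 7.

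The last step held the largest single changes. Interval_43361 had 3.49 and 1.09 normalised reads on day 5, 3.25, 7.23 and 5.53 on day 7, 13.0, 1.10 and 2.52 on day 9, and 936, 828 and 658 on day 11, a rise of 6.42 ± 0.37 (log2, SE; adjusted p = 2.72e-22, limma). Interval_118954 rose from 9.31, 5.49 and 3.37 on day 9 to 1016, 884 and 865. Interval_49651 rose from 4.66, 4.39 and 3.37 to 1047, 788 and 538. These intervals were near the floor in every NFIA-negative library of days 5 to 9 and open in all 3 of day 11. Over all openings, a rise of at least 4 was met in 591 intervals in the last step.

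Some of the largest late closings took down intervals that had been open from day 5 to day 9. Interval_5875 had 956 and 790.1 normalised reads on day 5, 1197, 917 and 1159 on day 7, 230.1, 532 and 463 on day 9, and 16.5, 24.0 and 13.2 on day 11, with a change of -4.12 ± 0.29 (log2, SE; adjusted p = 4.44e-19, limma) in the last step. Interval_133404 went from 116, 289.9 and 246 on day 9 to 4.34, 7.31 and 4.94. Interval_135915 differed from both: it was low on day 5, at 11.6 and 16.3, open on days 7 and 9, and at 6.07, 9.40 and 8.24 on day 11.

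**Figure D3:**
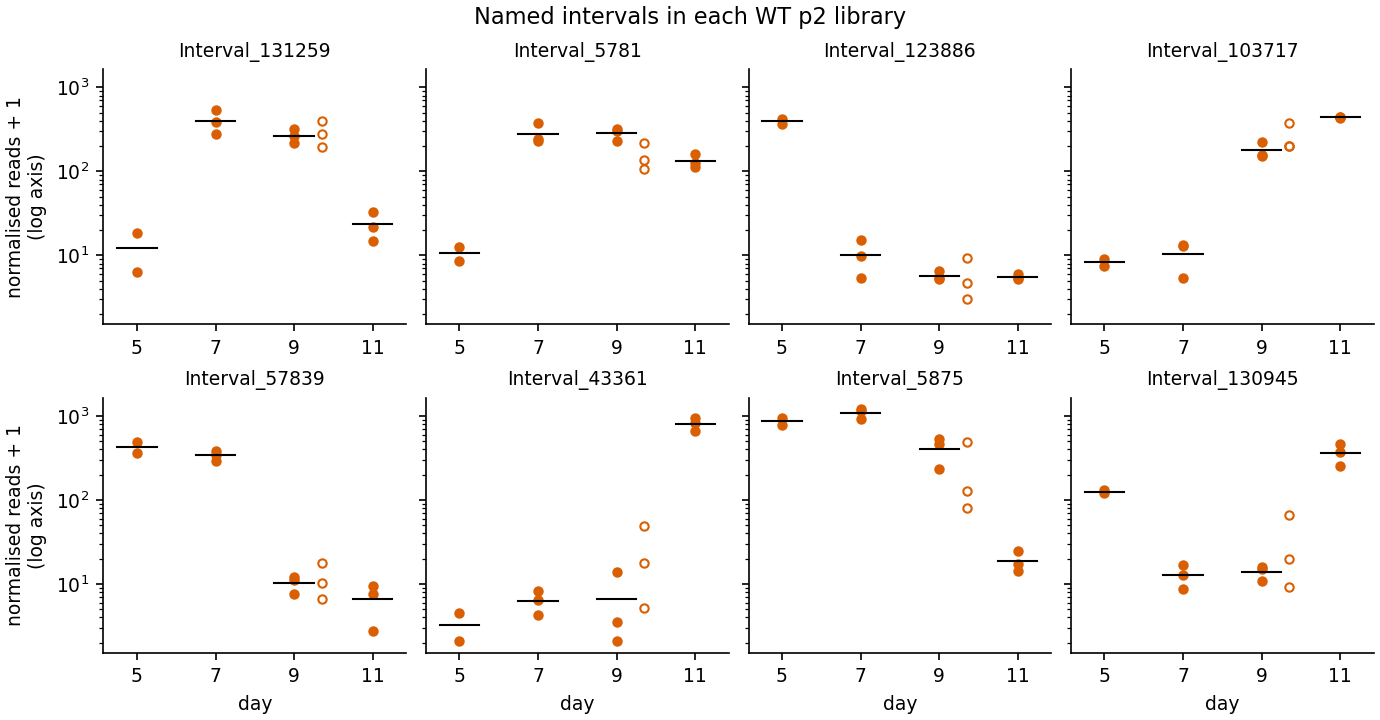
Normalised reads plus 1 (log axis) in each WT p2 library for 8 named intervals, by day. Filled points are the libraries of the NFIA-negative fraction on days 5 to 9 and of the NFIA-positive fraction on day 11, open points the NFIA-positive fraction of day 9, and bars the group means; Interval_43361 stays low to day 9 and Interval_131259 is high on days 7 and 9 only.

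Over the whole course the greatest rise among named intervals was that of Interval_40963, from 5.81 and 9.77 normalised reads on day 5 to 2011, 1945 and 1705 on day 11, a change of 7.22 ± 0.33 (log2, SE; adjusted p = 3.12e-28, limma). It climbed at every step, with 66.0, 34.7 and 42.0 on day 7 and 668, 422 and 434 on day 9. The greatest fall was that of Interval_127406, from 1539.8 and 1231 to 5.20, 7.31 and 2.47, a change of -7.14 ± 0.29 (adjusted p = 2.21e-30, limma). That interval was still at 1140.0, 905 and 1239.8 on day 7 and lost most of its signal by day 9, at 44.7, 97.7 and 80.8. Both thus moved in the same direction before and after day 9.

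The intervals called at each step were followed through the other days. Intervals that opened by day 7 had a median of 13.1 normalised reads on day 5, 47.8 on day 7, 52.4 on day 9 and 33.6 on day 11. Those that opened between day 7 and day 9 rose on to 130.7 on day 11, from 69.4 on day 9. Those that opened in the last step had been flat at 11.2, 11.3 and 14.5 and reached 71.3. On the closing side, early closings ended at 14.0 after 18.7 on day 7, and closings of the second step went on from 15.4 on day 9 to 8.40 on day 11. The median of the intervals that closed in the last step rose from 33.9 on day 5 to 59.5 on day 7 before it fell to 14.3 on day 11.

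**Figure D4:**
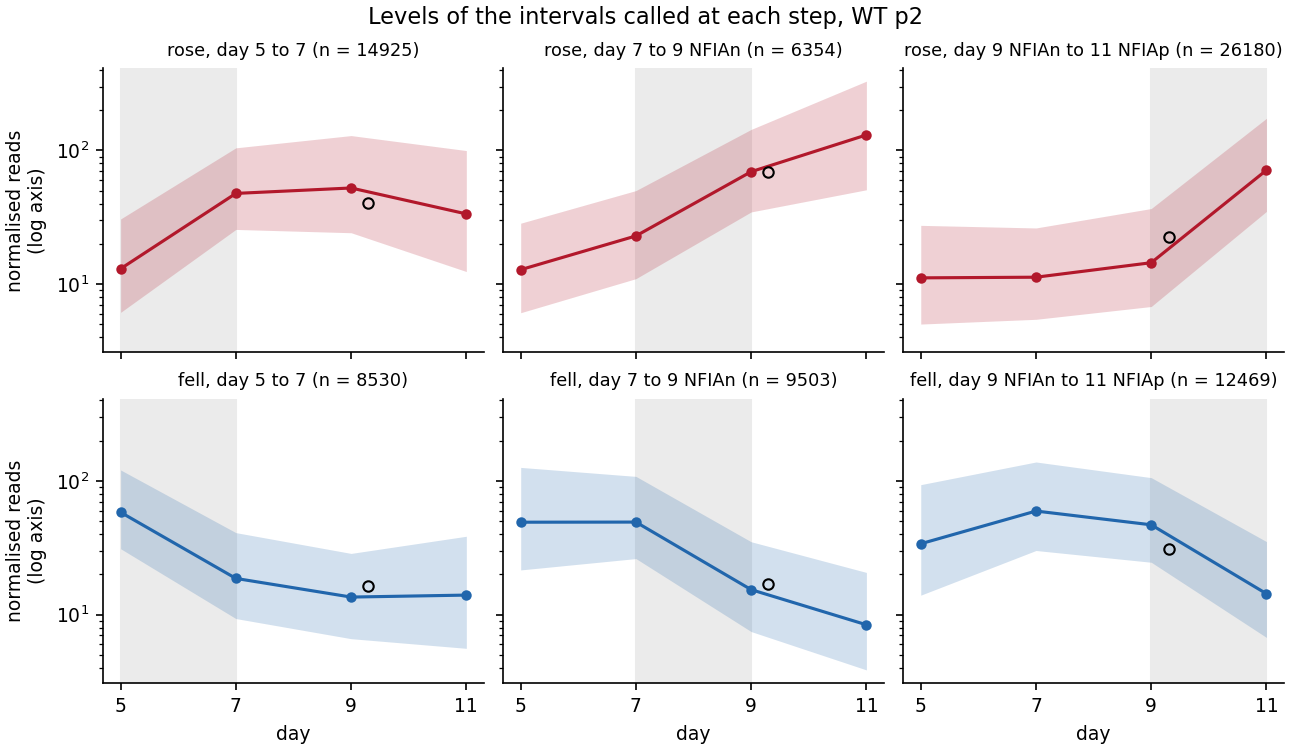
Median normalised reads (log axis, line) and quartiles (band) over WT p2 day means, for the intervals that rose (top) or fell (bottom) at each step. Grey marks the step by which the intervals were chosen, and open circles the NFIA-positive fraction of day 9; intervals that closed in the last step had a higher median on day 7 (59.5) than on day 5 (33.9).

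The first and last steps share no library, so their overlap can be read, though the intervals were not matched for level. Of the 14925 intervals that opened by day 7, 4577 (30.7%) closed in the last step, against 8.01% of all intervals tested, and these were 36.7% of all late closings, whereas early openings were 9.58% of all intervals. Only 987 of the early openings (6.61%) opened further in the last step, below the 16.8% of all intervals. Of the 8530 early closings, 1174 (13.8%) opened again and 317 (3.72%) closed further, both below the background of 16.8% and 8.01%. The median change in the last step was -0.61 (log2) over the early openings, with 26.1% above 0. Without replicate 2 of day 7, 4955 intervals opened early and closed late (29.7% of the early openings and 39.7% of the late closings).

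The 4577 intervals that opened early and closed late had medians of 15.3, 60.0, 56.3 and 16.4 normalised reads on days 5, 7, 9 and 11, and thus ended close to where they began. In the NFIA-positive p2 cells of day 9 their median was 33.3. The 987 that opened at both steps went from 12.3 to 40.7, 72.8 and 243.7. The other 9361 early openings, uncalled in the last step, held 42.6, 48.7 and 40.9 on days 7, 9 and 11.

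The same 4577 intervals moved likewise in libraries that were not used to choose them. Their median change was 1.40 in the first step and -0.86 in the last in WT p0-p1, 1.02 and -0.97 in WT pMN, and 1.52 and -1.06 in MUT p2. Both changes were called in 36.2% of them in WT p0-p1, 32.9% in WT pMN and 49.4% in MUT p2, against 2.04%, 2.11% and 2.26% of all intervals. Counted within each course on its own, 20.5% of the early openings of WT p0-p1, 24.7% of those of WT pMN and 23.3% of those of MUT p2 closed late, compared with 30.7% in WT p2. Late closings over all intervals were 5.34%, 7.40%, 6.31% and 8.01% in these courses, in the same order. The differences between these shares were not tested.

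Day 5 against day 11 likewise shares no library with day 7 against day 9. Of the 6354 intervals that opened between days 7 and 9, 5840 (91.9%) were higher on day 11 than on day 5, against 25.7% of all intervals, and these made up 14.6% of the 40053 net openings. Of the 9503 that closed, 7571 (79.7%, against 18.9%) were lower on day 11 than on day 5, or 25.7% of the net closings. Over the net openings the median change from day 7 to day 9 was 0.42 (log2) with 82.3% above 0, and over the net closings -0.63 with 8.23% above 0. The share above 0 over all intervals was 51.2%. The second step, taken wholly within NFIA-negative cells, thus ran in the direction of the whole course for most of these intervals. The change over the whole course contains that of the second step, which favours the same direction. The shares over all intervals are therefore not a full background here.

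Transient elements were also tested directly, by contrasts in which the middle days differed from every other day. Day 7 alone stood higher in 1428 intervals (0.917% of those tested) and lower in 89 (0.0571%). Days 7 and 9 together stood higher than days 5 and 11 in 1959 (1.26%) and lower in 578 (0.371%). Day 9 alone stood higher in 437 (0.281%) and lower in 133 (0.0854%). Counts of this kind depended on the settings: edgeR called 2377 higher and 672 lower for day 7 alone, and 3359 and 1243 for days 7 and 9. For day 9 alone it called 890 higher and 917 lower, so that the excess of higher calls was not kept there. Over both directions limma called 2281 for day 7 alone without replicate 2 of day 7, and 900 for day 9 alone without replicate 1 of day 9.

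Among the intervals that stood higher on day 7 alone, Interval_9340 had 115 and 90.1 normalised reads on day 5, 637, 532 and 754 on day 7, 22.4, 51.6 and 38.7 on day 9, and 12.1, 11.5 and 16.5 on day 11. Its contrast was 3.89 ± 0.25 (log2, SE; adjusted p = 1.14e-19, limma). The day 7 libraries did not overlap any other. The 1428 such intervals had a median of 55.8 on day 7, with 15.8 on day 5, 16.9 on day 9 and 6.38 on day 11, so that they ended below their start.

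The opposite course, lower on the middle days than at both ends, was the rarer one for days 7 and 9. Interval_130945 had 130.2 and 120.5 normalised reads on day 5, 11.9, 15.9 and 7.74 on day 7, 14.9, 9.88 and 14.3 on day 9, and 463, 372 and 255 on day 11, with a contrast of -3.65 ± 0.27 (log2, SE; adjusted p = 8.82e-18, limma). Interval_79415 went from 30.2 and 43.4 on day 5 through 5.41, 5.79 and 6.63 on day 7 to 695, 584 and 654 on day 11. Interval_118950 was lowest on day 9 alone, at 12.1, 12.1 and 15.1, after 68.2, 74.5 and 66.3 on day 7, and had 934, 945 and 810.0 on day 11. The day 11 level was the highest in each of these 3. Over the 578 intervals the medians were 66.7, 19.5, 19.4 and 86.5 on days 5, 7, 9 and 11.

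The last step joins a change of day with a change of fraction, and the day 9 NFIA-positive p2 cells lie between them. On the line from day 5 to day 11 these 3 libraries fell at 0.695, 0.456 and 0.537, with 0.476 to 0.549 in the NFIA-negative cells of that day. The fractions therefore overlapped. Replicate 2 of the NFIA-positive fraction, at 0.456, lay below every NFIA-negative library, and r between the libraries of this fraction was 0.944 to 0.956, lower than within any other WT p2 group. Replicate 1, at 0.695, lay further from replicate 3 than replicate 2 did, so the fraction was spread to both sides. The comparisons below are given with and without replicate 2, which was singled out after the data were seen. The effect of leaving out each other library is given only as a range at the end.

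Between the fractions of day 9, 1781 intervals were higher in the NFIA-positive cells (1.14% of those tested) and 4058 lower (2.61%). Without replicate 2 of the NFIA-positive fraction, 5664 were higher and 4716 lower, so that the direction of the balance turned with that library. edgeR called 4946 higher and 5271 lower with all libraries. From the NFIA-positive cells of day 9 to those of day 11, 21368 opened (13.7%) and 6574 closed (4.22%), or 18265 and 6072 without that library. The share of openings in that comparison was 76.5%, and 65.1% after quantile normalization and 67.0% with equal library totals. The root mean square change was 0.317 between the fractions and 0.792 from day 9 to day 11 within NFIA-positive cells, or 0.404 and 0.708 without that library.

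The 26180 intervals that opened in the last step had library medians of 15.8, 14.3 and 13.5 normalised reads in the NFIA-negative cells of day 9, 29.1, 14.5 and 21.5 in the NFIA-positive cells of day 9, and 82.4, 68.9 and 62.6 on day 11. The 12469 that closed had 40.0, 50.5 and 49.7, then 25.4, 34.2 and 30.9, then 13.9, 14.6 and 14.0. For both sets the day 9 NFIA-positive libraries lay between the other groups, apart from replicate 2 among the openings, which fell within the NFIA-negative range. A place between is favoured by the choice, since both sets were picked for a gap between those other groups. Interval_118954 gives an example by library, with 9.31, 5.49 and 3.37 in NFIA-negative cells, 124, 2.07 and 26.2 in NFIA-positive cells of day 9, and 1016, 884 and 865 on day 11.

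A comparison free of shared libraries gave a small difference between the fractions. The 40053 net openings from day 5 to day 11 had a median of 0.21 (log2) between the fractions of day 9, higher in NFIA-positive cells, with 68.5% above 0, and 0.33 without replicate 2. The 29500 net closings had a median of -0.03, and -0.08 without that library. Over all intervals the median was 0.02 with 53.1% above 0. Of the net openings 2.63% were called higher in NFIA-positive cells (1.14% of all intervals), but 3.37% were called lower (2.61% of all). Without that library 9.01% were called higher (3.64% of all). Of the net closings 1.95% were called lower, below the 2.61% of all intervals, and 3.30% without that library (3.03% of all). The calls thus did not run 1 way with all libraries kept.

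The intervals called in WT p2 were then followed over the same steps in the other courses, which share no library with WT p2. In the first step, p2 openings had a median of 1.26 (log2) in WT p0-p1, 1.06 in WT pMN and 1.33 in MUT p2, against 1.39 in WT p2 itself. They were called in the same direction in 66.2%, 52.9% and 75.8% of cases, against 9.94%, 8.52% and 9.72% of all intervals. In the second step, p2 openings had medians of 1.19, 0.95 and 1.24, and p2 closings of -1.10, -1.25 and -1.15. A median below that of WT p2 is built into the choice, since the intervals had to pass the threshold there.

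**Figure D5:**
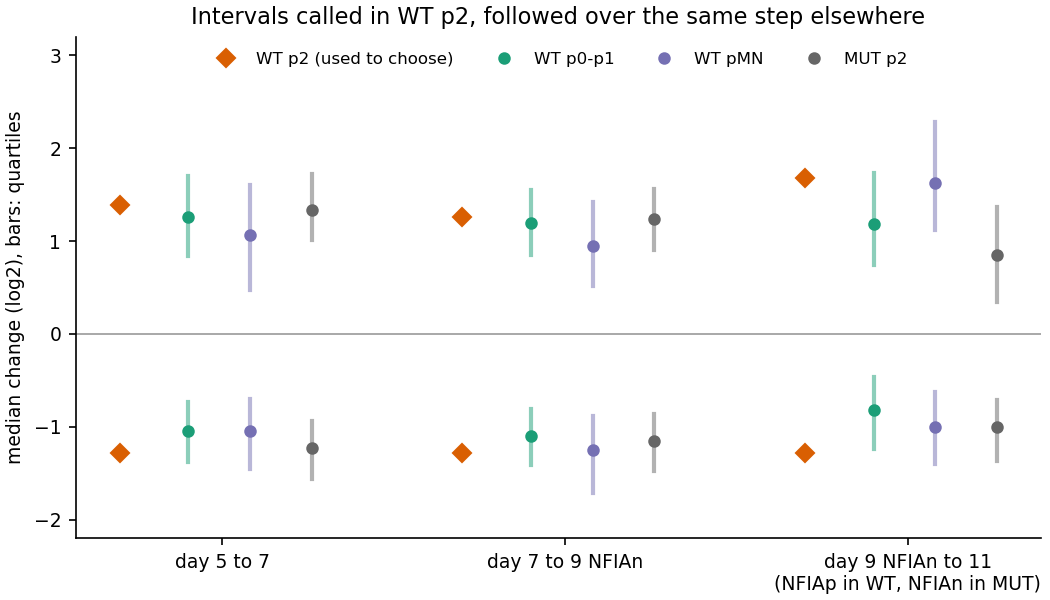
Median change (log2, points) and quartiles (bars) in WT p0-p1, WT pMN and MUT p2 over each step, for the intervals called in WT p2 at that step, with the WT p2 median (diamonds) by which they were chosen. The openings of the last step have a median of 1.63 in WT pMN and 0.85 in MUT p2.

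The medians of the last step lay further apart between courses. The 26180 openings of WT p2 had a median of 1.63 in WT pMN, with 80.5% called there (17.2% of all intervals), and 1.19 in WT p0-p1, with 60.4% called (14.3% of all). In MUT p2 the median was 0.85, with 42.1% called (9.16% of all). The closings were called in 50.0% of cases in WT pMN (7.40% of all), 38.7% in WT p0-p1 (5.34% of all) and 50.8% in MUT p2 (6.31% of all), with medians of -0.82 in WT p0-p1 and -1.01 in MUT p2. On day 11, p2 openings had a median of 71.3 normalised reads in WT p2 and 34.9 in MUT p2. Genotype and NFIA fraction cannot be told apart in the comparison with MUT p2, since the WT cells of day 11 were NFIA-positive and the MUT cells NFIA-negative.

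The difference between courses was tested itself, interval by interval, as the change in WT p2 minus the change in the other course. Against MUT p2 no interval was called in the first step (0%; limma, and also edgeR), with 5081 intervals (3.26%) at an unadjusted p below 0.05. In the second step 20 intervals were called (0.0128%), all with a more positive change in WT p2, and edgeR called 0. In the last step 9749 were more positive in WT p2 (6.26%) and 433 more negative (0.278%). The 9749 rose from a median of 11.3 normalised reads on day 9 to 82.0 on day 11 in WT p2, and from 11.3 to 15.0 in MUT p2. Of the openings of the last step, 8907 (34.0%) differed from MUT p2, and of the closings 216 (1.73%). Both sets were chosen by the same WT p2 libraries that enter this difference, which favours calls among them. The openings also had the larger changes in WT p2, so these shares cannot be compared with each other. Leaving out single WT p2 libraries gave 8213 to 10268 intervals in the last step.

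Interval_145071 had the most positive of these differences. In WT p2 it had 2.79, 2.20 and 1.68 normalised reads on day 9 and 510.0, 424 and 436 on day 11. In MUT p2 it had 4.27 ± 4.72 (SD, n = 2) on day 9 and 3.12 ± 2.26 (SD, n = 3) on day 11, and the difference of the changes was 6.12 ± 0.45 (log2, SE; adjusted p = 5.82e-16, limma). It opened in the other WT courses as well, to 431 ± 32.9 (SD, n = 3) in pMN and 141 ± 34.8 (SD, n = 3) in p0-p1. Interval_154221 went the other way, from 48.4, 50.5 and 45.4 to 16.5, 17.7 and 13.2 in WT p2, while MUT p2 had 36.2 ± 2.54 (SD, n = 2) and then 53.7 ± 13.2 (SD, n = 3), a difference of -1.84 ± 0.40 (adjusted p = 0.000604, limma).

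Against WT pMN, the count of differing intervals was highest in the first step. The change from day 5 to day 7 was more positive in WT p2 in 4881 intervals (3.13%) and more negative in 478 (0.307%). Over the 4881, the p2 medians rose from 21.1 to 47.1 normalised reads while those of pMN fell from 56.4 to 27.1. By the tests within each domain, 2258 of them opened in p2 and 2087 closed in pMN. The levels of the domains thus crossed between day 5 and day 7 at the median of these intervals. Without the libraries labelled replicate 3 of day 7 in WT and MUT pMN and replicate 2 of the day 9 NFIA-positive p2 cells, 5648 and 380 intervals were called. In the second step 897 were more positive in p2 (0.576%) and 49 more negative (0.0315%), and 507 and 54 without those libraries. Single WT p2 libraries also moved that count of 946, to 309 without replicate 3 of day 9, 358 without replicate 2 of day 9 and 319 without replicate 2 of day 7.

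In the last step 289 intervals were more positive in p2 than in pMN (0.186%) and 1392 more negative (0.894%). Interval_121759 was the most negative: it had 53.1, 70.3 and 115 normalised reads on day 9 and 69.4, 69.9 and 48.6 on day 11 in p2, and in pMN rose from 17.4 ± 2.17 (SD, n = 2) to 183 ± 49.1 (SD, n = 3), a difference of -3.31 ± 0.45 (log2, SE; adjusted p = 3.08e-06, limma). Interval_94562 was the most positive, at 2.50 ± 0.49 (adjusted p = 0.00211, limma), with 14.0, 34.0 and 21.0 on day 9 and 58.1, 40.7 and 79.1 on day 11 in p2. The rise in p2 was smaller than that difference, so a fall in pMN made up the rest. The 1681 intervals came down to 944 without replicate 3 of day 11, 905 without replicate 3 of day 9 and 1065 without replicate 2 of day 9, and edgeR called 1109.

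Against WT p0-p1 the count of differing intervals was highest in the last step. The change differed in 22 intervals more positive in p2 (0.0141%) and 64 more negative (0.0411%) from day 5 to day 7. From day 7 to day 9 it differed in 3 (0.00193%): Interval_47420 with a difference of 1.14, Interval_12509 with -2.21 and Interval_32140 with -1.83 (log2; adjusted p = 0.0404 for each, limma), which are named because they are so few, and edgeR called 0. In the last step 4061 were more positive in p2 (2.61%) and 4729 more negative (3.04%). The 4061 rose from 12.2 to 75.2 normalised reads at the median in p2 and from 15.2 to 27.6 in p0-p1, while the 4729 fell from 25.2 to 13.1 in p2 and rose from 24.9 to 62.1 in p0-p1. The last count, 8790 in all, was 5706 without replicate 3 of day 9, and the 86 of the first step were 26 and 8 without replicate 2 or replicate 1 of day 5 and 44 without replicate 2 of day 7.

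Interval_22549 and Interval_103749 were the extremes of that last comparison. Interval_22549 had 3.73, 5.49 and 5.89 normalised reads on day 9 and 481, 290.2 and 222 on day 11 in p2, and 10.7 ± 1.16 (SD, n = 3) and 67.1 ± 29.8 (SD, n = 3) in p0-p1, a difference of 2.89 ± 0.54 (log2, SE; adjusted p = 0.000329, limma). Under edgeR the difference was 3.38 with an adjusted p of 0.0938, so the call was not kept there. Interval_103749 fell in p2 from 71.7, 119 and 108 to 8.67, 13.6 and 17.3, with 132 ± 5.22 (SD, n = 3) and 206 ± 119 (SD, n = 3) in p0-p1, a difference of -3.00 ± 0.37 (adjusted p = 5.2e-07, limma).

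The numbering of the intervals gives a last description, since intervals called alike tended to carry neighbouring numbers. Of the intervals that opened from day 5 to day 11, 34.2% were followed by another of the same kind, against 25.7% of all intervals, and of those that opened in the first step 18.7%, against 9.58%. The longest series, chosen after its values were seen, ran over 30 consecutive numbers from Interval_101863 to Interval_101892, every one of them higher on day 11 than on day 5. The median of its day means was 6.76 normalised reads on day 5, 11.9 on day 7, 17.9 in NFIA-negative and 32.2 in NFIA-positive cells on day 9, and 60.9 on day 11. Whether neighbouring numbers are neighbours on a chromosome was not tested, as the table holds no positions.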

How the data were processed

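The deposited table holds 1 signal value per interval and library, for 155738 intervals and 71 libraries, on mouse build mm10 per the submitters' processing notes; the aligner, peak caller and counter are not given in the sources used here. The values the authors deposited are reads divided by 1 size factor per library: multiplied by it, 100% of them came out whole (within 0.01; largest distance 0.0052), and the factors equal median-of-ratios factors. All columns were used and placed by their labels.

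The members and the lists were chosen with earlier results of these data known. Main tests were made with limma 3.58.1 (R 4.3.3) on log2(value + 5), with 26 group means over all 71 libraries (45 residual degrees of freedom) and a trend of variance with mean. edgeR 4.0.16 on the recovered reads was the alternative, beside other pseudocounts (1 and 20), filters, scalings, a replicate block and the removal of single libraries. The limma fit was tested on simulated reads with known changes. For each comparison of days the 3 intervals with the largest rise and the 3 with the largest fall were eligible for naming. For the transient contrasts the most extreme 2 each way were eligible. Both choices were made among called intervals at or above the median level whose libraries did not overlap. For the differences of the last step between courses the most extreme 1 each way was eligible, at the same level but with no rule on overlap.

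Replicate numbers of different days mostly did not pair the libraries of the 4 groups: 2 of 15 pairs of deviations correlated over 0.1 (range -0.073 to 0.225). Those 2 were the pairs of days 5 and 7, with r of 0.225 in each. There the block gave 15072 openings and 8633 closings. Between the NFIA-positive cells of days 9 and 11, r was 0.210, 0.074 and 0.222, and the block gave 21368 openings and 6574 closings. The fractions of day 9 were paired, with r of 0.113 to 0.369 in all 3 pairs. There the block gave 1854 higher and 4071 lower intervals. The block gave each replicate number the same effect in all libraries, so it did not model a pairing within a day or between particular days. Between groups with the same replicate numbers it left the change itself as it was. The test between the fractions thus stayed unpaired, and these counts do not show what a paired test would give. No sequences are printed, since the table gives no positions.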

Additional observations from a re-analysis of the deposited data

Results flagged for a closer look

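The change in WT p2 differed from the change over the same days in another course by a direct test of the difference (limma, adjusted p below 0.05 and a log2 difference of 1 or more), which is why each of the following is listed. Against WT pMN, 5359 intervals differed from day 5 to day 7, 946 from day 7 to day 9 and 1681 in the last step. Against WT p0-p1, 86 differed in the first step, 3 in the second and 8790 in the last. Against MUT p2, 20 differed in the second step and 10182 in the last, where genotype and NFIA fraction cannot be told apart. Single intervals were listed for the same reason. Interval_22549 (2.89) and Interval_103749 (-3.00) differed from WT p0-p1 in the last step. Interval_94562 (2.50) and Interval_121759 (-3.31) differed from WT pMN, and Interval_145071 (6.12) and Interval_154221 (-1.84) from MUT p2, all on the log2 scale with positive values for a more positive change in WT p2.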

How the results depend on the processing

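No interval called between days of WT p2 took the opposite direction under any setting tried. Of the named intervals under all settings, 745 values kept their direction and call, and 1, Interval_22549 under edgeR, lost the call. With a pseudocount of 20 the openings and closings were 6517 and 3456 (day 5 to 7), 2720 and 3589 (day 7 to 9), 16765 and 4673 (day 9 to 11), and 26212 and 15349 (day 5 to 11). It gave 5 and 5542 differences from WT p0-p1 in the second and last steps, 494 intervals for day 7 alone, 129 for day 9 alone, 861 for days 7 and 9, 1941 between the fractions of day 9 and 14675 from NFIA-positive day 9 to day 11. With a pseudocount of 1, the closings of the last step were 20091, the differences from WT p0-p1 were 197 in the first step and 4970 in the last, and the transient counts were 2933, 1390 and 4254. With a mean of at least 30 required, fewer intervals were tested by construction: 9283 and 3800, then 4930 and 4854, which ends the excess of closings in the second step, then 13322 and 7850, and 21503 and 13089 over the course. The differences were then 3394 (pMN, first step), 1 and 4215 (p0-p1, second and last), 1065 (pMN, last) and 5505 (MUT p2, last), the transients 696, 367 and 1657, and the fraction comparisons 3746 and 15282. edgeR gave 14282 closings in the second step and 19528 in the last, 13 and 0 differences from p0-p1 in the first and second steps, 1109 from pMN in the last, 0 from MUT p2 in the second, transients of 3049, 1807 and 4602, and 10217 between the fractions. Quantile normalization gave 160 (p0-p1, first step) and 542 (pMN, second), and equal library totals 0 (p0-p1, second) and 533 (pMN, second).

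With a replicate block, 157 intervals differed from p0-p1 in the first step (41 more positive and 116 more negative in p2) and 43 from MUT p2 in the second. Replicate numbers paired the libraries of the first step in part, and not those of the second. The intervals more negative in p2 than in pMN in the second step were 88, and the block moved no other count of calls by over 1.5 times. Leaving out the libraries that went against their labels, of which replicate 2 of the day 9 NFIA-positive p2 cells was chosen after seeing the data, gave 179 (p0-p1, first), 561 (pMN, second), 37 (MUT p2, second) and 10396 (fractions). Leaving out runs of numbers in which MUT and WT were offset, 20500 intervals, gave 13 for MUT p2 in the second step. Leaving out single libraries gave 8 to 70 (p0-p1, first), 0 to 2 (p0-p1, second), 309 to 1408 (pMN, second), 10 to 21 (MUT p2, second), 5706 to 9663 (p0-p1, last), 905 to 1782 (pMN, last), 1279 to 2281 (day 7 alone), 488 to 900 (day 9 alone) and 4434 to 10380 (fractions). Without a day 5 library the remaining one is assumed to vary like the other groups. The cause of these differences was not tested, except where fewer intervals or libraries entered. Day 5 had 2 libraries, and intervals under 10 normalised reads rest on few reads.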
